A study of Mus musculus with 6 samples.

Results

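The 8 genes of an NF-κB feedback and survival group were followed in macrophages with and without Akirin2: Tnfaip3, Tnip1, Birc3, Traf1, Cflar, Ier3, Gadd45b and Tnfaip2. They were found as probe sets whose platform annotation gives a single gene symbol, that of a member, and where a gene had several, the brightest on average over the 6 arrays stood for it. All 8 members were found, with 19 of the 45101 probe sets on the array, and all 8 passed the floor on low values that 13587 of 18194 genes passed. To pass it, a gene had to be as bright as the median probe set of an array on 1 array or more.

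The Akirin2-deficient macrophages carried the genotype LysM-Cre+;Akirin2fl/fl, called Akirin2 KO here, where Cre is driven by the lysozyme M (Lyz2) gene and removes floxed Akirin2 from myeloid cells. They were set against wild-type macrophages, labelled wildtype, and the labels do not say whether those carried Cre or the floxed allele. Mice of both genotypes were C57BL/6 x 129Sv, and macrophages were drawn into the peritoneal cavity with thioglycollate. Cells were left without LPS (0 h) or stimulated with 100 ng/ml LPS, a bacterial outer membrane component, for 2 or 4 h. There was a single array for each condition, 6 in all, and the labels do not give the number, age or pooling of the mice.

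NF-κB is a family of transcription factors that macrophages activate within minutes of sensing LPS through Toll-like receptor 4. Among its targets are genes that restrain the same signal or keep the cell alive while it lasts. The A20 protein, made from Tnfaip3, edits ubiquitin chains on signalling proteins upstream of NF-κB, and the cell death inhibitors of this group act on the TNF receptor complex and on caspase-8. Akirin2 is a small nuclear protein without a DNA-binding domain of its own, and the design asks how its loss changes the macrophage response to LPS.

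The κB site, the DNA element bound by NF-κB, was looked for in the RefSeq promoter windows of the members (GRCm38.p6, 250 bases before to 50 after a gene's start). The 10-base κB consensus was searched on both strands. It was present in 4 of the 8 members, Tnfaip3, Tnip1, Ier3 and Tnfaip2, and in 9.55% of all 27025 genes with a window. By window it was present in 4 of 9 for the members, since Tnfaip3 has a further start site without a match, and in 8.46% of all 32851 windows. The 250 bases before the start are shown for Tnfaip3 (chr10:19015411-19015660, minus strand), Tnip1 (chr11:54962941-54963190, minus strand) and Ier3 (chr17:35821463-35821712, plus strand). Of these, only Ier3 passed the adjusted genotype test described below, and no link between the letters and genotype was tested. The sequences are written 5′ to 3′ on the gene's strand, with the matches in capitals.
Tnfaip3: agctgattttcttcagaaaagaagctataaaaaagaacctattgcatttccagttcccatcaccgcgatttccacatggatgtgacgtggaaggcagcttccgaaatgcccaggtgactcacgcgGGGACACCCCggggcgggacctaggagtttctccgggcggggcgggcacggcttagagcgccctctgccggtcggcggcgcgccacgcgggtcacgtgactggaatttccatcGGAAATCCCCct
Tnip1: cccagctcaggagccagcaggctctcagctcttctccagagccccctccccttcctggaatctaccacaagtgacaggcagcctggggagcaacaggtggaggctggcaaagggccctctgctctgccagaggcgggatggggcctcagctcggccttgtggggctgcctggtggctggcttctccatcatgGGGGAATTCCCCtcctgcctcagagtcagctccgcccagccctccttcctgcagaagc
Ier3: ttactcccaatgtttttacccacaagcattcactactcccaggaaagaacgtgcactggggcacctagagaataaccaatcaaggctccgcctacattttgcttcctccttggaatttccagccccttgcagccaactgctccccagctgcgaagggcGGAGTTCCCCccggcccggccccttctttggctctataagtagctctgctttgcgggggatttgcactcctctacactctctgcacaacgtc
Tnfaip3 holds separate matches, of which the nearer lies 12 to 3 bases before the start and the farther 125 to 116 bases before it. The farther one matches on both strands. In Tnip1, 4 overlapping matches on both strands form 12 capital bases, within 58 bases before the start. The Ier3 match lies 92 to 83 bases before the start, on the opposite strand. Tnfaip2 has its match 24 to 15 bases before the start, also on the opposite strand. No match was found in the windows of Birc3, Traf1, Cflar and Gadd45b, which says only that these letters are not there. A match is a run of letters and not a measured binding site.

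The arrays are summarised in ranges. The deposited values are log2 expression values that the submitters made with RMA, a method that corrects background, evens out the arrays and combines the probes of a set. Correlations between arrays lay between 0.958 and 0.989. Akirin2 read 5.18, 5.54 and 4.91 in Akirin2 KO at 0, 2 and 4 h, against 7.43, 7.47 and 7.33 in wild-type. Its genotype effect was -2.20 on this brightest probe set and -1.11 with all its probe sets averaged (limma adjusted p = 0.000328 and 0.00439). Its paralog Akirin1 did not pass the genotype test (0.092, limma adjusted p = 0.784). All 8 macrophage markers, among them Adgre1, Csf1r and Cd68, passed the floor. Among these, the Fc receptor gene Fcgr1, fell in Akirin2 KO by 0.89 (limma adjusted p = 0.0115), and the summed linear level of the list was 12660 to 14512 in Akirin2 KO and 14201 to 15106 in wild-type. Markers of mesothelial cells and fibroblasts were above the floor in 9 of 9. On the linear scale they summed to between 455 and 542 in Akirin2 KO and between 735 and 794 in wild-type. The collagen genes Col1a1, Col1a2 and Col3a1, the brightest of them, weigh most in these sums. Of the 9, 1 fell, Col1a2, and 5 had an unadjusted p under 0.05 in the limma fit, where 15.4% of all genes had. The list median of the genotype effect was -0.47, beside -0.011 over all genes. In such bulk samples fewer cells of a type and less RNA per cell cannot be told apart. The 3′ minus 5′ difference of the Actb control probe sets, a sign of RNA quality, was 4.36 to 4.64 in Akirin2 KO and 4.09 to 4.22 in wild-type. For Gapdh it was 4.34 to 4.52 in Akirin2 KO and 4.33 to 4.42 in wild-type.

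LPS raised every member in both genotypes. In a limma fit with time and genotype as terms, all 8 were higher at 2 h and all 8 at 4 h after Benjamini-Hochberg adjustment over the 13587 genes. Across all genes, 3.96% were called higher at 2 h and 7.76% at 4 h. Of the markers of other cell types, the neutrophil gene S100a8 rose at 2 h (0.67) and 4 h (1.26). It was the only 1 of 4 neutrophil markers above the floor that was called, and S100a9 stood at -0.18 and -0.46. The B cell gene Ighm fell at 2 h and 4 h (-0.87 and -0.57). The neutrophil markers summed to 354, 431 and 568 in Akirin2 KO at 0, 2 and 4 h and to 332, 482 and 637 in wild-type. S100a8, the brightest of them, weighs most in these sums. The part of these markers in the members' rise was not tested. The median effect of the members was 1.99 at 2 h and 1.91 at 4 h on the log2 scale, beside -0.042 and -0.026 over all genes. With 1 array per condition the error in this fit is the disagreement between the genotypes' time courses, with 2 residual degrees of freedom, and not the spread between animals. By single arrays, 7 of 8 members were at least 2-fold above 0 h at 2 h in Akirin2 KO and all 8 in wild-type, where 2.44% and 2.26% of all genes were. At 4 h the count was 7 in each genotype, where 4.07% of all genes were that high in Akirin2 KO and 3.72% in wild-type. All but Gadd45b were 2-fold higher at both times in both genotypes, where 1.4% of all genes were.

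**Figure D1:**
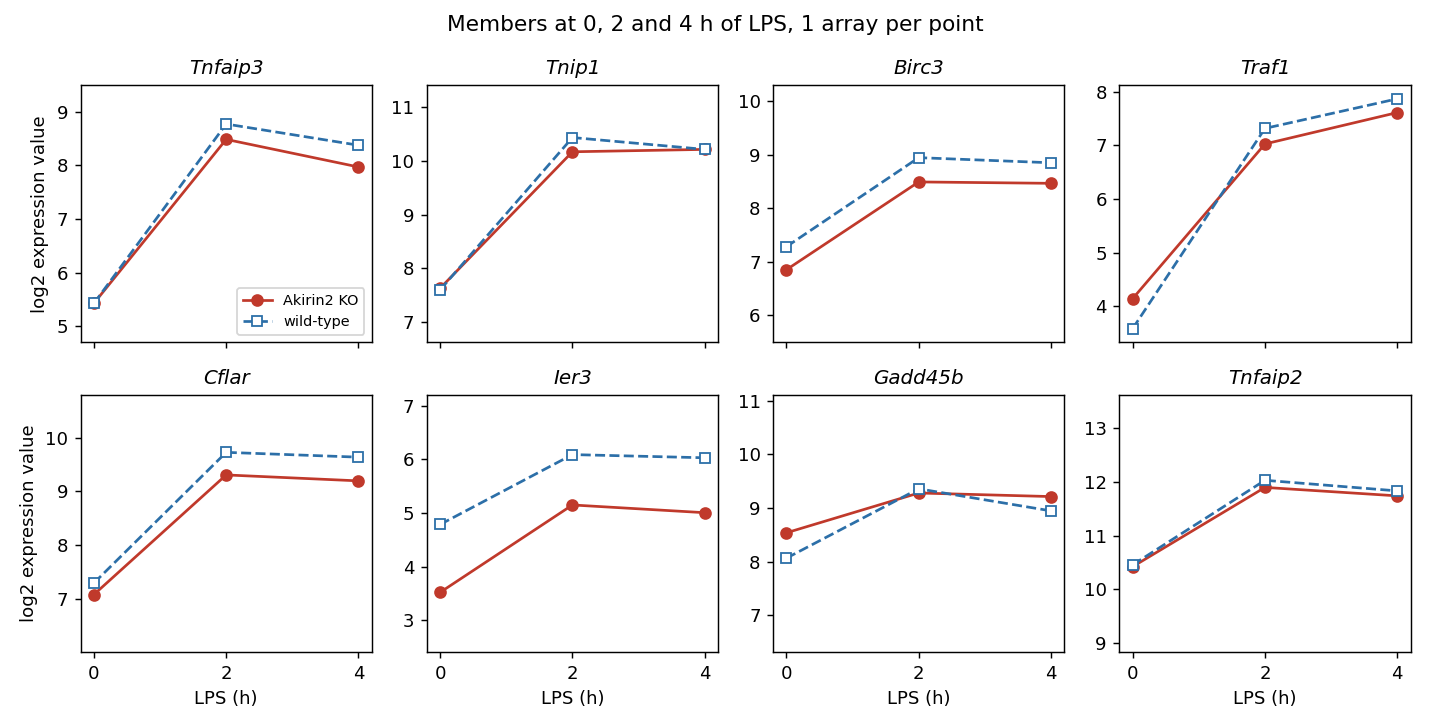
Log2 expression values of the 8 members (y axis) against hours of LPS (x axis), with 1 array per point, Akirin2 KO as filled circles and wild-type as open squares; each panel spans the same range of log2 units around its own centre. All lines rise between 0 and 2 h, and Ier3 is the member whose lines stay about 1 log2 unit apart.

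The ubiquitin-editing genes were induced early. Tnfaip3, which encodes A20, read 5.43, 8.48 and 7.97 in Akirin2 KO at 0, 2 and 4 h, against 5.43, 8.77 and 8.37 in wild-type. Both genotypes peaked at 2 h. Without LPS they were equal on the deposited scale (0.00048 apart), but Akirin2 KO was higher by 0.17 with quantile normalization again and by 0.16 with arrays centred. Its 2 h effect was 3.20 (SE 0.16, limma adjusted p = 1.39e-05), a 9.19-fold rise, and its 4 h effect was 2.74. Tnip1 encodes ABIN-1, an adaptor that binds ubiquitin chains and works with A20. It read 7.63, 10.17 and 10.21 in Akirin2 KO, against 7.60, 10.44 and 10.21 in wild-type. Its levels at 4 h were all but equal, and wild-type at 2 h was the highest array. The 2 h effect was 2.69 (SE 0.15, limma adjusted p = 3.1e-05).

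The genes of the receptor complex were induced to different degrees. Traf1 encodes an adaptor that joins TNF receptors to cIAP proteins. Its values were 4.14, 7.03 and 7.61 in Akirin2 KO, against 3.59, 7.32 and 7.87 in wild-type. It had the largest fitted rise of the 8 members at both times, although Tnfaip3 rose more in Akirin2 KO at 2 h (3.06 against 2.88). On the probe sets used, it was the only member higher at 4 h than at 2 h in both genotypes, by 0.58 in Akirin2 KO and 0.55 in wild-type. Its other set, 1445452_at, moved by -0.014 and 0.29 between these times. The Gadd45b set 1450971_at was also higher at 4 h, by 0.31 and 0.20. The fitted Traf1 values below are from the set used. The fitted effect was 3.31 at 2 h and 3.88 at 4 h (SE 0.22 each, limma adjusted p = 7.26e-05 and 2.23e-05). Cflar encodes c-FLIP, a caspase-8 relative that holds back death receptor signalling. It read 7.08, 9.31 and 9.20 in Akirin2 KO, against 7.29, 9.73 and 9.64 in wild-type, so the Akirin2 KO array was the lower at each time. The 2 h effect was 2.33 (SE 0.15, limma adjusted p = 6.19e-05). Birc3 encodes cIAP2, a ubiquitin ligase of the TNF receptor complex that protects from cell death. Its values were 6.85, 8.49 and 8.46 in Akirin2 KO, against 7.28, 8.94 and 8.85 in wild-type, again lower in Akirin2 KO at each time. Its 2 h effect was 1.65 (SE 0.14, limma adjusted p = 0.000344).

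On the probe sets used, the stress feedback genes and Tnfaip2 had smaller rises. Ier3 encodes IEX-1, a short-lived stress-induced protein that modulates cell survival. It read 3.52, 5.15 and 5.01 in Akirin2 KO, against 4.79, 6.09 and 6.03 in wild-type. The stimulated Akirin2 KO arrays lay just above unstimulated wild-type cells, and the 2 h effect was 1.47 (SE 0.16, limma adjusted p = 0.000973). Gadd45b encodes a stress sensor that binds the kinase MKK7 and limits JNK signalling. Its values were 8.54, 9.28 and 9.21 in Akirin2 KO, against 8.07, 9.36 and 8.95 in wild-type. It was the least induced member, with an effect of 1.02 at 2 h (SE 0.17, limma adjusted p = 0.0103) and 0.78 at 4 h (adjusted p = 0.0181). Tnfaip2 encodes M-Sec, an exocyst-related protein that promotes thin membrane tubes between cells. It read 10.42, 11.90 and 11.74 in Akirin2 KO, against 10.45, 12.03 and 11.83 in wild-type, and the genotypes lay within 0.13 of each other at every time. The 2 h effect was 1.53 (SE 0.15, limma adjusted p = 0.000539).

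The 2 h effects of the members with and without a κB match overlapped. The 4 with a match had 2 h effects of 3.20, 2.69, 1.53 and 1.47, and the 4 without had 3.31, 2.33, 1.65 and 1.02, all on the log2 scale. These are fitted differences and not levels, and no test of the motif was made.

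**Figure D2:**
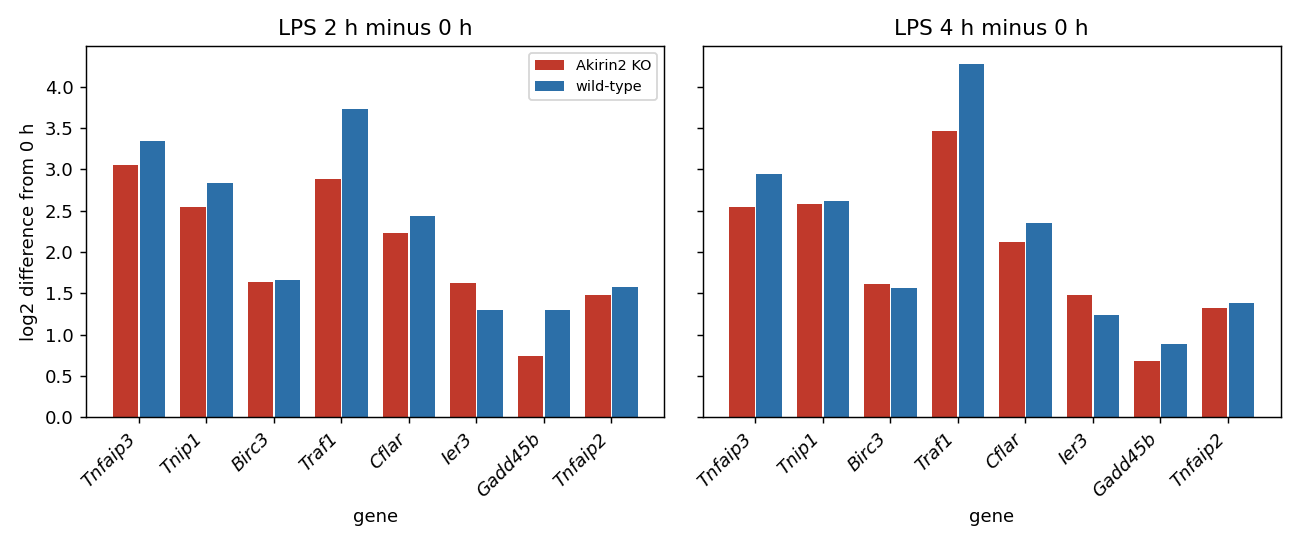
Log2 difference from 0 h (y axis) at 2 h (left) and 4 h (right) for each member (x axis), with Akirin2 KO bars left of wild-type bars and no error bars because each bar is the difference of 2 arrays. Traf1 has the tallest bars at 4 h, 3.47 in Akirin2 KO and 4.28 in wild-type, and Gadd45b the shortest, 0.68 and 0.88.

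Ier3 was the member that differed between the genotypes. Its level in Akirin2 KO was 41.6%, 52.2% and 49.2% of wild-type at 0, 2 and 4 h, and at each time the Akirin2 KO array was the lower. In the limma fit Ier3 fell by 1.08 (SE 0.13, adjusted p = 0.00647, 95% interval -1.37 to -0.79), the 36th lowest effect of 13587 genes. Of the 8 members 1 fell and 0 rose, where 1.06% of all genes were called lower and 0.891% higher. At an unadjusted p under 0.05 there were 3 members, Ier3, Birc3 and Cflar, where 15.4% of all genes were. Leaving out the arrays of any of the 3 times kept the Ier3 call, with effects from -1.14 to -0.98. The p-value measures how constant the difference was over the 3 times; if the arrays of a genotype share mice, a difference between mice would recur at each time and cannot be told apart from the genotype. Ier3 is read by 1 probe set. The summed mesothelial and fibroblast markers (455 to 542 in Akirin2 KO, 735 to 794 in wild-type) and the Actb difference also did not overlap between the genotypes, and their part in the Ier3 difference was not tested.

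Birc3 and Cflar were lower in Akirin2 KO at all 3 times on the probe sets used, without passing the adjusted test. Birc3 stood at 74.2%, 73.1% and 76.7% of wild-type at 0, 2 and 4 h. Its effect was -0.42 (95% interval -0.69 to -0.15, limma adjusted p = 0.132). The other Birc3 probe set was higher in Akirin2 KO at all 3 times, by 0.58, 0.46 and 0.21, and averaging both sets gave an effect of -0.0033. Cflar stood at 86.1%, 74.7% and 73.6%, with an effect of -0.36 (95% interval -0.64 to -0.078, limma adjusted p = 0.209). With the eBayes step set to trend and robust, both passed, at an adjusted p of 0.00601 for Birc3 and 0.0134 for Cflar. That setting called 883 of all genes in either direction, against 265 in the main fit. The other 5 effects had 95% intervals that included 0: -0.53 to 0.071 for Tnfaip3, -0.37 to 0.21 for Tnip1, -0.41 to 0.42 for Traf1, -0.10 to 0.54 for Gadd45b and -0.36 to 0.18 for Tnfaip2. Such intervals leave room for differences of up to about their bounds.

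At 2 h of LPS all 8 members were below wild-type in Akirin2 KO, by 0.078 for Gadd45b to 0.94 for Ier3 with a median of -0.29, where 49.1% of all genes were below. At 4 h 7 of 8 were below, Gadd45b being the exception at 0.27, where 45.5% of all genes were. At both of these times 7 of 8 were below, where 28.3% of all genes were. With all probe sets of a gene averaged, 6 of 8 were below at 2 h and 6 at 4 h. At 0 h 4 were below and 4 above, where 60% of all genes were below. Birc3, Cflar, Ier3 and Tnfaip2 were below at all 3 times, as 20.4% of all genes were, although Tnfaip2 at 0 h was above with arrays centred (0.13) or normalized again by quantiles (0.033). Tnfaip3, Tnip1 and Traf1 were above at 0 h (Tnfaip3 by 0.00048) and below at 2 and 4 h, as 7.89% of all genes were. By the 2-fold rule, 1 member was lower at 0 h (1.15% of all genes), 0 at 2 h (0.464%) and 1 at 4 h (0.618%), in both cases Ier3. No member was 2-fold higher in Akirin2 KO at any time, where 0.78%, 0.486% and 0.832% of all genes were at 0, 2 and 4 h.

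**Figure D3:**
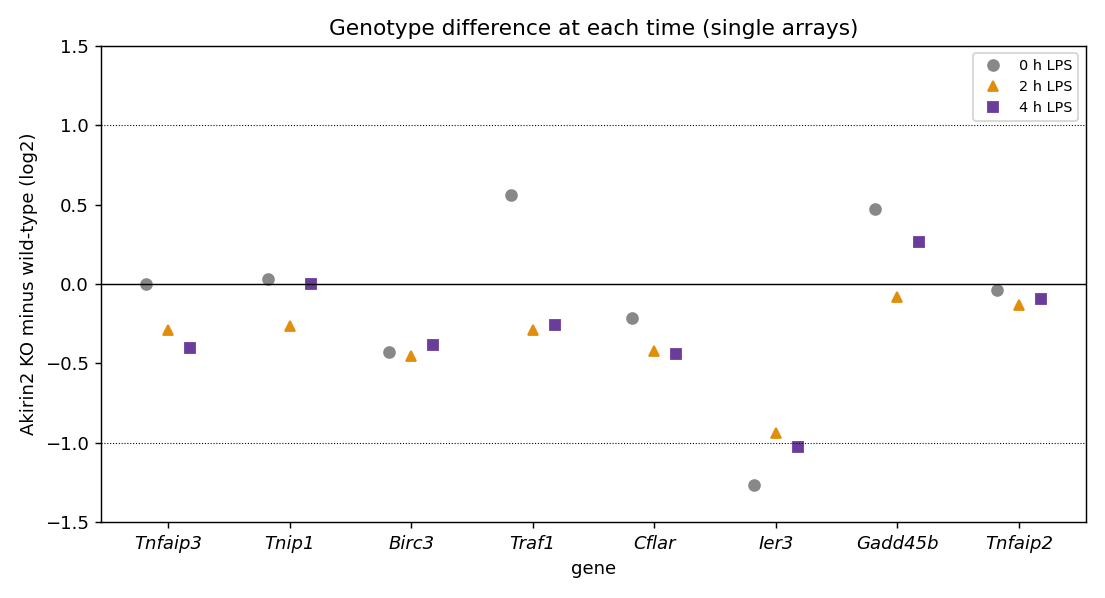
Akirin2 KO minus wild-type in log2 units (y axis) for each member (x axis) at 0 h (circles), 2 h (triangles) and 4 h (squares), each the difference of 2 single arrays; dotted lines mark 2-fold. Ier3 lies near or below the lower line at all 3 times, and Traf1 and Gadd45b lie above 0 at 0 h.

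The induction by LPS was compared between the genotypes as the response in Akirin2 KO minus that in wild-type. Traf1 had the largest difference, -0.85 at 2 h and -0.81 at 4 h: its induction was 7.38-fold in Akirin2 KO against 13.3-fold in wild-type at 2 h, and 11.1-fold against 19.5-fold at 4 h. Both comparisons share the 0 h arrays, on which Traf1 was higher in Akirin2 KO by 0.56, while on the LPS arrays it was lower by 0.29 and 0.26. Gadd45b was also higher in Akirin2 KO at 0 h, by 0.47, and its response difference was -0.55 at 2 h and -0.21 at 4 h. Tnfaip3, equal at 0 h on the deposited scale, stood at 82.0% of wild-type at 2 h and 75.5% at 4 h. Ier3, lower throughout, had response differences of 0.33 and 0.24, so its induction was 3.09-fold in Akirin2 KO against 2.47-fold in wild-type at 2 h. Some of the 0 h values under these folds were low, beside array medians of 3.18 to 3.23. Traf1 read 3.59 in wild-type and 4.14 in Akirin2 KO, and Ier3 read 3.52 in Akirin2 KO. Folds from such low single readings are less certain. With arrays centred, which moved the median of all genes by -0.27, the 4 h differences were -0.025 for Ier3, -0.47 for Gadd45b, -0.67 for Tnfaip3, -0.49 for Cflar, -0.30 for Tnip1, -0.32 for Tnfaip2, -0.22 for Birc3 and -1.08 for Traf1. The response difference was below 0 at both times for 6 of 8 members, all but Birc3 and Ier3, where 25.6% of all genes were below. With arrays centred 8 of 8 were below 0 at 4 h, against 6 on the deposited scale. The median of all genes at 4 h was then also below 0, at -0.15, against 0.12 on the deposited scale. The share of all genes below 0 with arrays centred was not counted. Averaging both Traf1 probe sets gave response differences of -0.13 and -0.26, and the other set alone gave 0.59 and 0.29.

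In the limma fit with a genotype by LPS interaction, 0 of 8 members passed, where 0.0294% of all genes did. Traf1 alone had an unadjusted p under 0.05, as 12.8% of all genes did, with an interaction of -0.83 (SE 0.25, adjusted p = 0.203). For Ier3 the interaction was 0.28 (95% interval -0.26 to 0.82), and for Tnfaip3 it was -0.35 (95% interval -0.89 to 0.20). This fit has 1 residual degree of freedom, and its intervals are wide.

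Within each gene the 6 arrays were ordered, and neighbours were set against the residual SD of the gene in the fit (0.14 to 0.22 over the members). In every member the 4 LPS arrays lay above both 0 h arrays. Ier3 came closest to breaking this, since Akirin2 KO at 4 h exceeded wild-type at 0 h by 0.22, beside a residual SD of 0.16. For Tnfaip3, Tnip1 and Tnfaip2 the 0 h arrays differed by less than the residual SD, while for Birc3, Traf1, Cflar, Ier3 and Gadd45b they differed by more. Tnip1 at 4 h in both genotypes and at 2 h in Akirin2 KO could not be ordered, and neither could any neighbours among the 4 LPS arrays of Tnfaip2. For Birc3, Cflar and Ier3 both wild-type LPS arrays lay above both Akirin2 KO LPS arrays, and the 2 and 4 h arrays within a genotype differed by less than the residual SD. The other Birc3 probe set went the other way at 2 and 4 h, at 4.49 and 4.48 in Akirin2 KO against 4.04 and 4.27 in wild-type. The share of all genes with each of these orders or gaps was not counted, so they have no background.

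Probe sets of the same gene did not always move alike. Of the 19 probe sets, 17 were at or above the array median on all 6 arrays. Fitted over all 45101 probe sets, LPS raised 14 of these 17 at 2 h and 14 at 4 h (2.01% and 3.78% of all probe sets), and 1 of 19, that of Ier3, fell in Akirin2 KO (0.308%). The second Birc3 probe set, 1425223_at, read 3.84, 4.49 and 4.48 in Akirin2 KO, against 3.25, 4.04 and 4.27 in wild-type. It was thus higher in Akirin2 KO, with an effect of 0.42 (limma adjusted p = 0.216), the opposite of the set used for the gene. With both sets averaged, the Birc3 effect was -0.0033.

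Cflar has 5 probe sets, and the genotype effect was below 0 in all 5. It was -0.65 to -0.23 in 4 of them and only -0.0059 (SE 0.12) in 1453482_at, where Akirin2 KO was above wild-type at 0 and 2 h. Probe set 1449317_at read 4.47, 7.52 and 7.55 in Akirin2 KO, against 5.27, 8.13 and 8.09 in wild-type. Its effect was -0.65, with a limma adjusted p of 0.0584 among all probe sets and 0.0391 when it stood for Cflar among the 13587 genes. Probe set 1453482_at did not pass for LPS at either time, at 0.34 and -0.35, and 1425687_at did not either, at 0.35 and 0.14. The third Gadd45b set, 1450971_at, placed the genotypes close together at every time, with 6.71, 7.65 and 7.96 in Akirin2 KO against 6.57, 7.74 and 7.95 in wild-type. The 0 h difference seen in both other Gadd45b sets was 0.14 there. Tnfaip2 had a more responsive set, 1416273_at, at 4.08, 7.27 and 7.04 in Akirin2 KO against 4.82, 7.64 and 7.30 in wild-type, with a 4 h effect of 2.72 and a genotype effect of -0.46 (limma adjusted p = 0.203). For Traf1 the dimmer set, 1445452_at, read 3.36, 4.47 and 4.45 in Akirin2 KO against 3.35, 3.87 and 4.15 in wild-type. The 0 h excess of the main set was not seen in it (0.0084). Its induction went the other way, stronger in Akirin2 KO, with response differences of 0.59 at 2 h and 0.29 at 4 h. The interaction for this set was 0.44 (limma adjusted p = 0.569 among all probe sets).

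**Figure D4:**
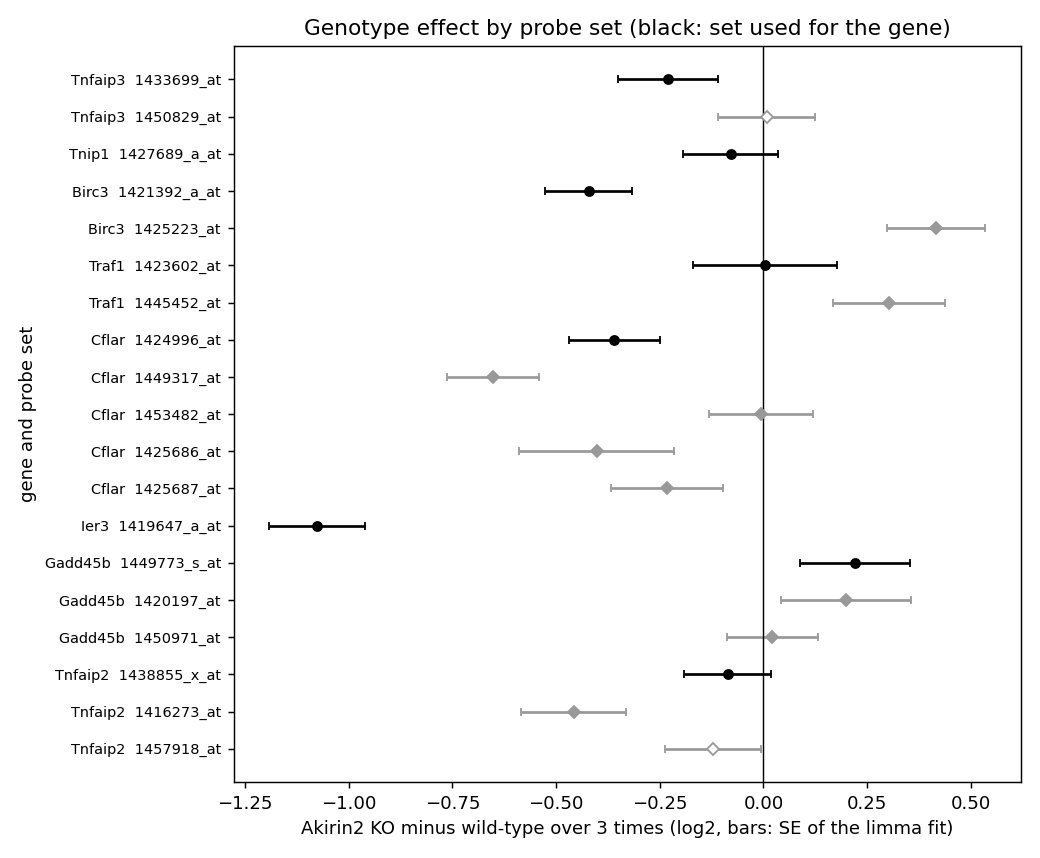
Genotype effect over the 3 times in log2 units (x axis, bars are the SE of the limma fit over all probe sets) for the 19 probe sets of the members (y axis); black circles are the sets used for a gene, grey diamonds the others, and open symbols were not above the array median on all 6 arrays. Ier3 stands at -1.08, and the Birc3 sets lie on opposite sides of 0.

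The other GADD45 genes went opposite ways between the genotypes. Gadd45a, a relative of Gadd45b that is also induced by DNA damage, read 4.89, 7.06 and 6.28 in Akirin2 KO, against 5.49, 7.92 and 6.83 in wild-type. It rose with LPS (1.36 at 4 h, limma adjusted p = 0.000642) and fell in Akirin2 KO by 0.67 (SE 0.13, limma adjusted p = 0.0383). Gadd45g read 6.03, 4.21 and 4.72 in Akirin2 KO, against 4.64, 3.62 and 3.96 in wild-type. It fell with LPS by 1.43 at 2 h (limma adjusted p = 0.00443) and was higher in Akirin2 KO by 0.92 (limma adjusted p = 0.0359). Neither genotype call was kept with arrays centred or normalized again by quantiles, where the adjusted p ranged from 0.0636 to 0.0985. The Gadd45a call was also lost without the 2 h arrays (adjusted p = 0.25), and the Gadd45g call with a higher floor (adjusted p = 0.0538). The same differences in the summed mesothelial and fibroblast markers and in Actb stand beside these calls. Their part was not tested.

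**Figure D5:**
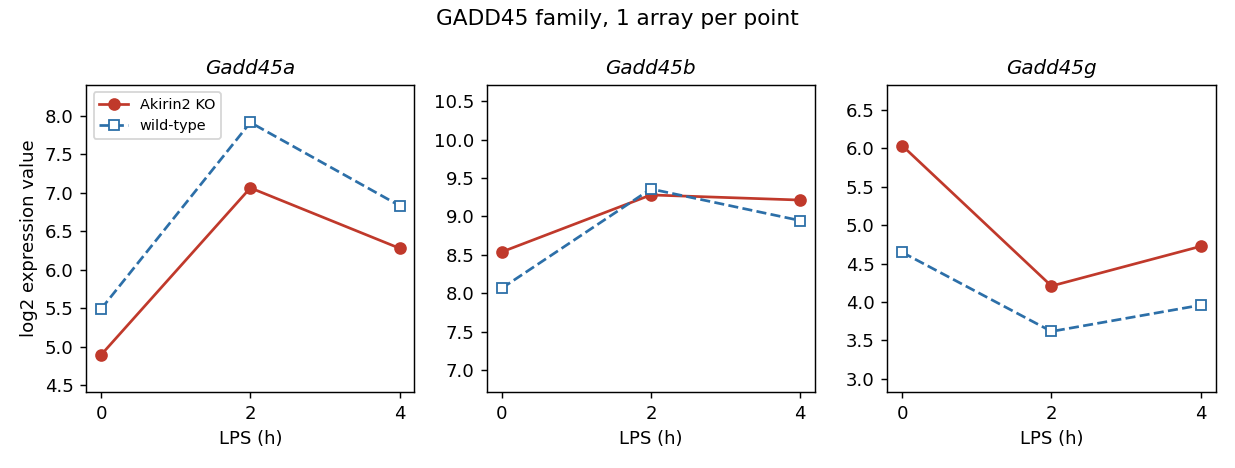
Log2 expression values (y axis) of Gadd45a, Gadd45b and Gadd45g against hours of LPS (x axis), 1 array per point, Akirin2 KO as filled circles and wild-type as open squares, with equal spans of the y axes. Gadd45a is lower and Gadd45g higher in Akirin2 KO at all 3 times, and the Gadd45b lines cross.

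Genes around the members were counted by lists that were chosen with earlier results of these data known. Of the NF-κB subunits and IκB proteins, all 10 measured were higher after LPS, with a median of 1.94 at 2 h and 1.74 at 4 h, led at 2 h by Nfkbiz (4.18) and Nfkbie (3.32). In that list 0 passed between genotypes, 2 having an unadjusted p under 0.05, and the median was -0.21. Of 8 with a promoter window, 6 held the κB consensus, among them Nfkbia and Rel, beside 9.55% of all genes. In the other lists it was held by 2 of 8 ubiquitin editing genes and 1 of 13 receptor complex genes with a window. It was held by 0 of 9 GADD45 partners and 0 of 11 exocyst and Ral genes. Of 13 measured genes for ubiquitin editing partners and other feedback enzymes, 1 rose at 2 h, Zc3h12a (2.01), beside 3.96% of all genes. At 4 h 4 rose, Zc3h12a, Rnf11, Ikbkg and Usp18, beside 7.76% of all genes, and the list median was 0.14 at 2 h and 0.20 at 4 h. Cyld, which removes ubiquitin chains as A20 does, had an effect of 0.26 at 2 h (limma adjusted p = 0.403). Usp18, the deconjugase of ISG15, was the one that fell in Akirin2 KO, by 0.93 (limma adjusted p = 0.019), and it did not pass with arrays centred (adjusted p = 0.0549).

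Of 14 measured genes of the TNF receptor complex and caspase-8 axis, 3 rose at 2 h, Tnf (5.32), Tnfrsf1b (1.71) and Traf5 (1.54), and 5 at 4 h, where Mlkl and Bid joined them. Over all genes 3.96% were called higher at 2 h and 7.76% at 4 h, which is the background for each list here. None passed between genotypes, 2 having an unadjusted p under 0.05, and Tnf was at -0.56 (limma adjusted p = 0.0724). Birc2, the paralog of Birc3, had a 2 h effect of 0.28 (limma adjusted p = 0.371) beside 1.65 for Birc3. Of 10 kinases and partners of GADD45, 1 rose and 1 fell at 2 h, which were Gadd45a and Gadd45g. Of 11 measured exocyst and Ral genes, 0 passed at 2 h, 2 having an unadjusted p under 0.05. At 4 h Exoc3l4 rose by 1.32 and Exoc6 fell by 0.86, where 2089 of all 13587 genes were called in either direction. An unadjusted p under 0.05 was found for 7 of the 11 at 4 h. The share of all genes with such a p for LPS was not counted at either time, so these counts have no background. In the interaction fit 0 genes of these lists passed, and unadjusted p-values under 0.05 were found for 3 of the NF-κB list, 2 each of the GADD45 and exocyst lists, 1 of the receptor list and 0 of the ubiquitin list.

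Pearson correlations between the members over the 6 arrays ran from 0.55, between Ier3 and Gadd45b, to 0.999, between Tnfaip3 and Tnfaip2, with a median of 0.95 over 28 pairs. All points share the same 6 arrays, and the step between 0 h and LPS sets most of each value. Among 2239 other genes with a range of at least 1 log2 unit, those most like Tnfaip3 were Tnfaip2, Nfkbiz and Pde4b (0.998 to 0.999). Most like Ier3 were Klf3, Chml and Abtb2 (0.990 to 0.991), and most like Traf1 were Ccl3, Clec4e and Mndal (0.996 to 0.997). Cflar was followed most closely by Rab11fip1, Il1b and Il1a (0.998 or above), Tnip1 by Aebp2, Cxcl1 and Pim3 (0.998 to 0.999) and Birc3 by Orai2, Rbm7 and Phldb1 (0.996 to 0.999). For Gadd45b the nearest were Cish, Rhou and Zfp263 (0.982 to 0.990).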

How the data were processed

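Expression was measured on 6 Affymetrix arrays, 1 for each genotype and time. Each probe set has a deposited log2 value from RMA, according to the authors and per the submitters' processing notes; the RMA version is not given in the sources used here. Precision is limited by the number of arrays. Of 45101 probe sets, 34958 had 1 gene symbol in the platform annotation, 932 had several and 9211 none. Of the first, 34754 matched RefSeq gene numbers (GRCm38.p6), which changed 0 symbols. The floor at the array median left 13587 genes.

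Fits used limma 3.58.1 in R 4.3.3 (lmFit, eBayes, Benjamini-Hochberg over all genes, threshold 0.05). The additive fit had time and genotype as terms (prior worth 6.35 degrees of freedom), and the interaction fit added genotype by stimulation (prior worth 11.5). Single arrays were compared by size, at least 2-fold. Scripts were tested on simulated data. The members, lists, named-gene rule and alternatives were chosen with earlier results of these data known. Named were the members, Akirin2, Akirin1, up to 4 genes of a list with the largest genotype or 2 h effect, and the 3 genes most correlated with each member; list genes that passed a test, Cyld and Birc2 were added after their values were seen. Of the cell type lists, 4 of 6 neutrophil, 4 of 4 B cell, 4 of 5 T and NK cell, 3 of 5 mast cell and 1 of 4 eosinophil markers passed the floor, with 0 called between genotypes. Of 8 macrophage markers Fcgr1, and of 9 mesothelial and fibroblast markers Col1a2, were called lower in Akirin2 KO.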

Additional observations from a re-analysis of the deposited data

Results flagged for a closer look

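Traf1 stood on opposite sides of wild-type before and after LPS on the probe set used, while its other set was above wild-type at all 3 times. Akirin2 KO minus wild-type was -0.29 at 2 h and -0.26 at 4 h, beside 0.56 at 0 h, each from a pair of single arrays. The difference between times was not tested for these pairs one by one. The genotype by LPS interaction, which pools 2 and 4 h, was -0.83 with a limma adjusted p of 0.203.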

How the results depend on the processing

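All 8 members rose at 2 and 4 h under each alternative that was run on whole gene tables. The lower Ier3 in Akirin2 KO was called under each alternative run, with adjusted p-values for the Ier3 genotype effect from 0.000144 to 0.0166. The genotype effect called 3 members lower with eBayes set to trend and robust. The number of all genes called for genotype, 265, was 176 with probe sets averaged, 142 with arrays centred, 883 with trend and robust, 532 at an adjusted p of 0.1, 664 without the 0 h arrays and 158 without the 2 h arrays. For LPS at 2 h, 931 genes became 1669 with trend and robust and 1413 at 0.1. The interaction's 4 genes became 0 with no floor, with the higher floor, without _x_at and _s_at probe sets and with arrays centred, 1 with probe sets averaged, 62 with quantile normalization again, 256 with trend and robust and 80 at 0.1. At 1.5-fold, 1 member was lower at 2 h and 1 member had a lower response at each time; with arrays centred 1 member had a 2-fold lower response at each time. Centring moved the median of all genes by 0.16 for Akirin2 KO minus wild-type at 0 h and -0.11 at 4 h, by 0.15 and 0.17 for the wild-type responses at 2 and 4 h, by -0.16 and -0.27 for the response differences and by -0.21 for the interaction. Some effects changed sign, large ones among them on other probe sets. For genotype these were Tnip1 (0.015 without the 2 h arrays), Traf1 (-0.27 without the 0 h arrays), and other probe sets of Tnfaip3 (0.0077) and Birc3 (0.42). For LPS at 4 h they were other probe sets of Cflar (-0.35) and Tnfaip2 (-0.026). For the interaction Birc3 stood at -0.12 with probe sets averaged, -0.077 with quantile normalization again, -0.20 with arrays centred and -0.25 on its other probe set. Tnfaip2 stood at 0.078 with probe sets averaged and 0.42 without _x_at sets or on its other responsive set, Traf1 at 0.44 and Cflar at 0.23 on another set. The cause of these changes was not tested. With the looser consensus, 6 of 8 members and 53.5% of all genes held a match. Of 296 counts recomputed, 274 stayed within 1.5 times the main count, and of 984 values of single genes 878 kept their direction and side of the threshold or moved by less than the residual SD. The fit compares the genotypes within each time; the labels give no replicate numbers to pair samples by.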
